A study of Mus musculus with 20 samples.

Results

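Variation between RNA pools in mouse liver was measured on 4 of the 20 two-colour arrays of the series, the slides that set pool 2 in the red channel against pool 1 in the green channel. They were chosen by their channel labels alone. All 4 belong to the second of 2 spotted cDNA array designs, which carries 7680 clones paired with 4075 genes. The liver came from the F line and the Fob3b line, and each line was represented by 2 pools of total RNA. One slide compared Fob3b pool 2 with Fob3b pool 1, and is called the Fob3b pool slide. A second compared F pool 2 with F pool 1, and is called the F pool slide. The 2 crossed slides changed line and pool at once: the first is labelled F pool 2 over Fob3b pool 1, and the second Fob3b pool 2 over F pool 1. Not given in the sources used here are the number of animals in a pool and their age, sex, diet and feeding state.

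As background, the F line is a mouse line selected for fatness, and Fob3b names an obesity locus at which the line of that name is held to carry alleles of a lean line in the F background. Liver RNA changes with feeding, time of day, stress during collection and the mix of cells in the piece sampled. Pooling averages such differences over the animals of a pool, and what remains between pools of 1 line is the spread against which a difference between lines is read. In a loop design, in which each RNA is measured against several others, every difference is seen once directly and once along the path through the remaining slides.

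The 4 slides form a closed loop through the 4 pools, so they give 4 independent combinations. The first is the pool difference common to both lines, which on these slides also holds any dye effect of a clone because pool 2 is always red. The second is the line difference, Fob3b minus F. The third is the pool difference of Fob3b minus that of F. The fourth is the closure, the sum around the loop, which is zero apart from measurement error. Values are log2 ratios, red over green, with each slide centred on its median clone. The deposited ratios state neither their base nor their numerator, so another base would rescale all folds and the other numerator would turn all signs.

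The slides were of even quality. The SD over clones was between 0.202 and 0.224 on the log2 scale, and the 2 spots printed for each clone correlated at 0.636 to 0.720. The share of the variance over clones that lay between printing blocks, the 48 patches laid down by separate pins, was 10.9% on the Fob3b pool slide, 18.6% on the first crossed slide, 25.6% on the second and 31.8% on the F pool slide. Of 20 hepatocyte markers only Fah, of tyrosine breakdown, was paired with a clone, and ratios give no level, so the labelled tissue could not be checked. Each pool is 1 RNA sample, so p-values for a pool difference measure array error only and say nothing of the spread between animals.

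The second crossed slide went against its labels for 3 genes named for their difference between the lines. Msmo1 (clone 23191), an enzyme of cholesterol synthesis, was higher in Fob3b on the slides that compared the lines within pool 1 (0.40) and within pool 2 (1.16). On the first crossed slide it lay at -0.34, Fob3b higher, and on the second at -0.94, which by its labels is F higher. Fasn, the fatty acid synthase, was 0.57 and 0.69 higher in Fob3b on the matched-pool slides, lay at -0.56 on the first crossed slide (Fob3b higher) and at -0.33 on the second (F higher). Alas1, which starts haem synthesis, lay at -0.40 and -0.67 for Fob3b minus F on the matched-pool slides, at 0.26 on the first crossed slide (F higher) and at 1.21 on the second (Fob3b higher). These 3 genes were chosen with the matched-pool results known.

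Other values did not settle the matter, and the labels were kept. Of the 25 clones whose mean matched-pool difference passed 1.5-fold, 13 (52.0%) had the labelled sign on the second crossed slide, near the 51.8% of all clones. On the first 16 (64.0%) had it, against 49.7% of all clones. With each printing block centred on its own median, the shares were 68.0% on the second, against 49.9% of all clones, and 64.0% on the first, against 53.7%. The median of 60 genes of cytosolic ribosomal proteins was -0.05 on the first crossed slide and 0.13 on the second, opposite as the labels have it, but 25 of the 60 genes (41.7%) had opposite signs themselves, against 38.4% of all genes. With the dyes of the second crossed slide turned, the line difference over the loop became 0.64 for Msmo1 clone 23191, 0.45 for Fasn and -0.74 for Alas1, where the labels gave -0.30, 0.11 and 0.47. The loop's closure had an SD of 0.214 as labelled and 0.192 with this slide turned, and the values with the other slides turned singly were 0.211 for the Fob3b pool slide, 0.210 for the F pool slide and 0.239 for the first crossed slide. The dye effect of a clone cancels in the closure as labelled but not with a single slide turned, so these SDs cannot decide the direction. The direction of this slide is therefore not settled, and the values it bears on most are also given with its dyes turned (the turned loop) or without it. In the turned loop the dye effect of a clone no longer cancels in the line difference, so every turned line value holds it.

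As labelled, the largest share of the variation on the loop was the combination that holds the common pool difference and the dye. Scaled to the error of 1 slide, its SD over clones was 0.277, against 0.174 for the line difference, 0.173 for the difference between the pool differences and 0.214 for the closure. These were 42.1%, 16.5%, 16.4% and 25.0% of the total sum of squares. The spread of the line difference was thus below that of the closure, which holds measurement error alone, by a factor of 1.23. With each printing block centred on its own median, the 4 SDs were 0.240, 0.160, 0.152 and 0.197, in the same order. With the second crossed slide turned they were 0.2395, 0.242, 0.173 and 0.192. The line difference then had the largest SD, level with the pool and dye term and above the closure. With blocks centred as well they were 0.229, 0.210, 0.152 and 0.159, and the pool and dye term had the largest SD. In the turned loop the dye effect of a clone does not cancel in the line difference or in the closure, so both hold it. On the 4 matched-pool slides of this design the SD was 0.266 for the line difference and 0.208 for the dye effect. These SDs are descriptions with no test.

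**Figure D1:**
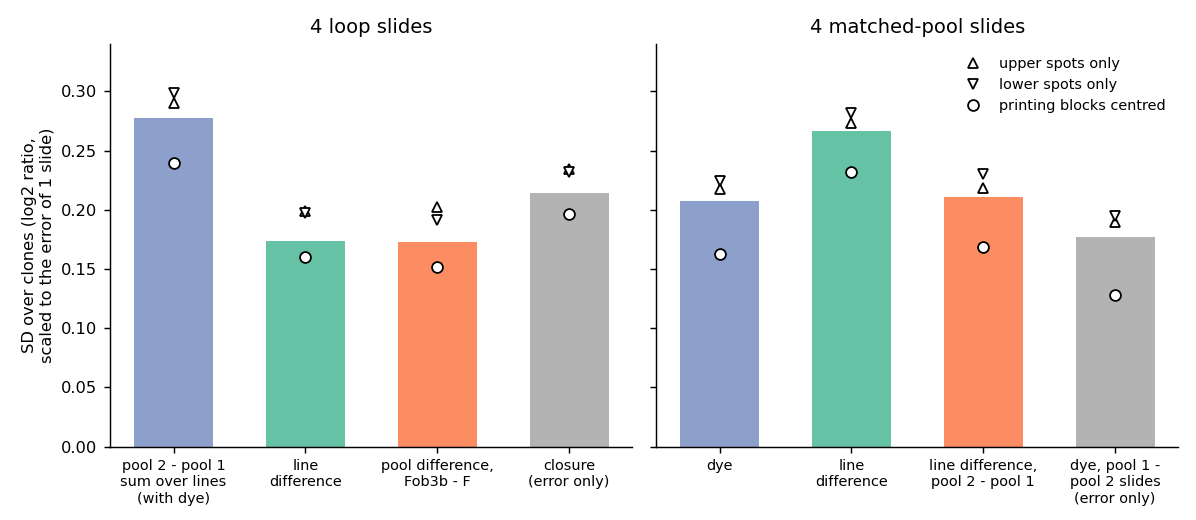
SD over 7680 clones (log2 scale, scaled to the error of 1 slide) of each independent combination of the 4 loop slides and of the 4 matched-pool slides, with triangles for upper or lower spots alone and circles for printing blocks centred. On the loop the combined pool and dye term has the highest bar, 0.277, and the line difference, 0.174, lies below the closure, 0.214.

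Direct and indirect values of the same pool difference ran independently over the clones. The SD of the Fob3b pool slide was 0.224 and that of the path over the other 3 slides 0.361. Pearson's r between them was -0.017 across the 7680 clones, and 51.4% of clones had the same sign. For the F pools the SDs were 0.209 and 0.368, r was -0.024, and 49.1% of clones had the same sign. Turning the second crossed slide gave r of -0.047 and -0.178, with the dye then of opposite sign on the direct slide and the path. These are correlations across clones of slides that share array features, and clones are not independent replicates.

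**Figure D2:**
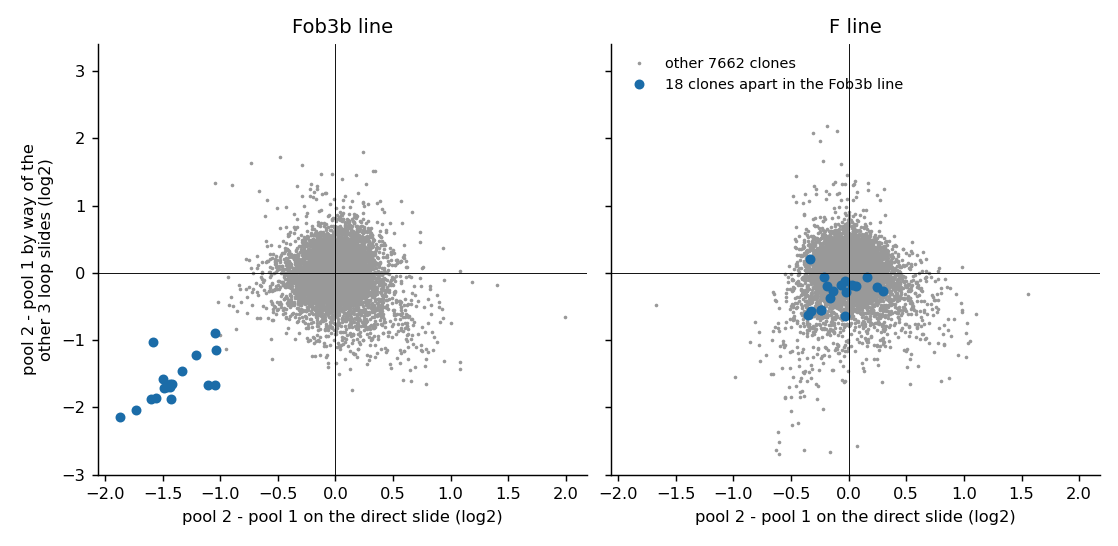
Direct log2 difference, pool 2 minus pool 1, on the x axis against the value over the path of the other 3 slides on the y axis, for Fob3b and for F, 1 point per clone. The cloud has no slope in either panel, with r of -0.017 and -0.024, and the 18 clones past 2-fold in Fob3b stand apart at the lower left of the Fob3b panel.

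Against this background 18 clones (0.234% of 7680) were more than 2-fold lower in Fob3b pool 2 than in Fob3b pool 1 in the loop, and 2 (0.026%) were more than 2-fold higher. The 18 were chosen by that fitted value, whose median was -1.50 with a range from -1.94 to -1.01, so these are no independent evidence of it. Their values lay between -1.87 and -1.04 on the Fob3b pool slide, with a median of -1.44, and between -1.96 and -1.03 on the first crossed slide, with a median of -1.35. On the second crossed slide they lay between -0.60 and -0.05, and on the F pool slide between -0.35 and 0.29. The clones were thus lowest on both loop slides that hold Fob3b pool 1 and closer to the median clone on both loop slides without it. Solved for the pools, the median level relative to the mean of the 4 pools was 0.996 in Fob3b pool 1, -0.48 in Fob3b pool 2, -0.17 in F pool 1 and -0.34 in F pool 2. With the second crossed slide turned these were 1.07, -0.21, -0.47 and -0.37.

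Of the 18 clones 10 were paired with 1 gene each, and 8 with none. The genes have no common pathway that is known here. A730082K24Rik lay at -1.73 on the Fob3b pool slide, -1.70 on the first crossed slide, -0.58 on the second and -0.24 on the F pool slide, for a difference of -1.81 (SE 0.134). Pip4p1, a lipid phosphatase of lysosomes, had -1.60, -1.62, -0.27 and -0.02 on the same slides, and Bche, the butyrylcholinesterase that liver secretes into plasma, -1.56, -1.53, -0.57 and -0.24. In both the first pair of values lay well below the second pair. The fitted differences were -1.67 (SE 0.131) and -1.63 (SE 0.134).

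The remaining named clones had the same pattern. Pdlim7, a scaffold protein bound to actin, had a fitted difference of -1.54, and Paip2, an inhibitor of the poly(A)-binding protein, one of -1.51. Odf2, of sperm tails and centrioles, had -1.50, Fcgbp, a mucin-like protein that binds immunoglobulin, -1.49, and Mtfr1l, related to a regulator of mitochondrial fission, -1.48. Irak1, a kinase of interleukin-1 and Toll-like receptor signalling, lay at -1.36 and Tmed3, a carrier of cargo between endoplasmic reticulum and Golgi, at -1.44. The 10 genes lie on 9 chromosomes and the 18 clones in 16 printing blocks.

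Other clones of the same genes did not share the difference. Odf2 has another clone at 0.11, Paip2 has others at -0.11 and -0.14, and Mtfr1l has another at 0.00. The 18 clones followed each other: the correlation of a clone with the mean of the other 17 over the 8 liver slides of this design was between 0.923 and 0.996, given as a description, since the set was chosen on the 4 loop slides among them. Just inside the 2-fold limit stood 2 clones at -1.01 and -1.07. Just outside it stood C330007P06Rik at -0.998, clones at -0.98 and -0.88 and Cnn2, a calponin, at -0.86.

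None of the 7680 clones (0%) passed an adjusted p of 0.05 for the Fob3b pool difference in limma, where 358 (4.66%) had an unadjusted p under 0.05, 130 positive and 228 negative. The smallest adjusted p was 0.0578, shared by A730082K24Rik and other members of the 18. With clones of a gene averaged before the fit, 8 of 4075 genes (0.196%) passed, all negative: A730082K24Rik, Pip4p1, Bche, Pdlim7, Fcgbp, Irak1, Tmed3 and C330007P06Rik, with adjusted p from limma between 0.00242 and 0.0264. With the second crossed slide turned 66 clones (0.859%) passed, 21 positive and 45 negative, the 18 among them, and the median of the 18 was -1.32. Without that slide the value is the Fob3b pool slide alone, with its median of -1.44. The turned fit has a more even spread over clones, with 45.5 prior degrees of freedom in place of 4.11.

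The matched-pool slides of this design, which the choice of the 18 did not use, compared the same pools line against line. Within pool 1 the 18 clones were higher in Fob3b in all 18 cases, with a median of 0.50 and a range from 0.15 to 0.71. Within pool 2 they were also higher in Fob3b in all 18, with a median of 0.27 and a range from 0.10 to 0.35. The loop gave a median of 1.17 for Fob3b minus F in pool 1 and of -0.15 in pool 2, where 17 of 18 were negative. In the turned loop the medians were 1.54 in pool 1 and 0.15 in pool 2, where 15 of 18 were positive, and without that slide they were 1.30 and -0.02, where 7 of 18 were. The sign of the pool 1 difference was thus the same on both sets of slides in each of these cases, its size differed, and the sign of the pool 2 difference followed the second crossed slide. On the pair of brown adipose slides of this design, of other RNA, 17 of the 18 lay higher in Fob3b with a median of 0.27. Over all clones 49.2%, 50.4% and 51.4% were positive in these comparisons.

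**Figure D3:**
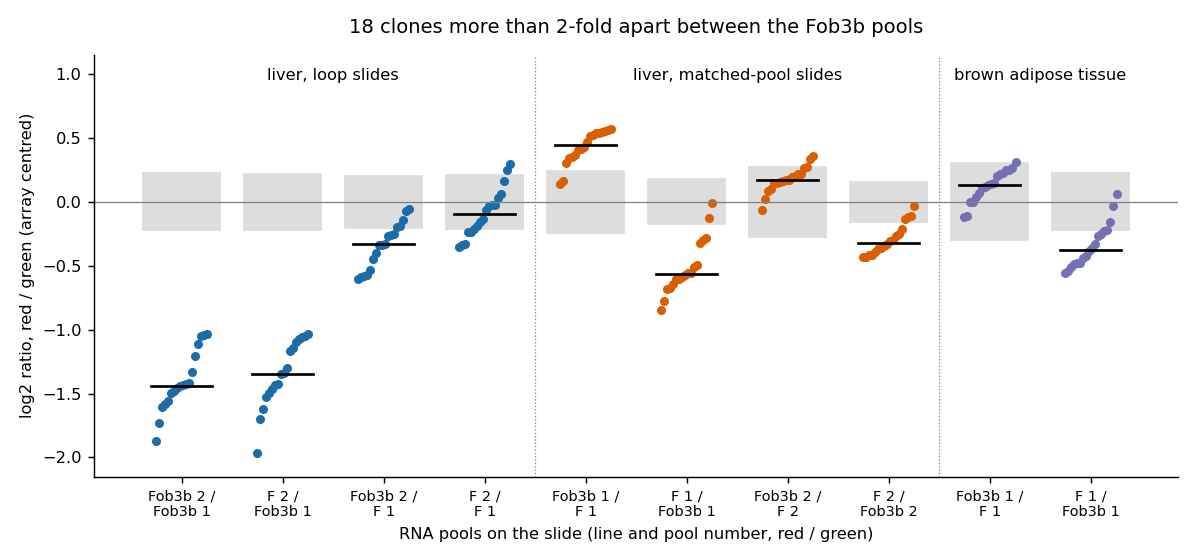
Log2 ratio (red over green) of the 18 clones past 2-fold in Fob3b on each liver slide and the pair of brown adipose slides of the second design, 1 point per clone, with a line at the median of the set and a grey band for the SD of all clones on either side of 0. The 18 sit between -1.96 and -1.03 on the loop slides that hold Fob3b pool 1, and between -0.60 and 0.29 on the other loop slides.

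The clones higher in Fob3b pool 2 were weaker and more mixed. The 10 named by size of p had fitted differences from 0.44 to 0.72 and adjusted p in limma from 0.687 to 0.925, so none passed. Smim1, a small membrane protein of red cells, lay at 0.66 on the Fob3b pool slide and 0.90 over the path, for a difference of 0.72. Rtf2, a replication fork factor, had 0.57 and 1.06, and Prdm4, a zinc finger protein, 0.57 and 0.74. The turned loop gave paths of 0.35 for Smim1, -0.04 for Rtf2 and 0.89 for Prdm4. Of the 10 genes Prdm4 then passed, at 0.65 with an adjusted p of 0.0176 in limma. Eef2, the elongation factor that moves the ribosome along the mRNA, had 0.44 and 0.61 and a fitted 0.48, and its 3 other clones lay between 0.24 and 0.40. Ints10, Trim21, Sec24c, Gtse1, Ecpas and Hsf5 had fitted values of 0.44 to 0.54. Their turned paths were negative for Ecpas (-0.12), Trim21 (-0.24) and Gtse1 (-0.13), and positive for Ints10, Sec24c and Hsf5, as for Eef2. All 10 stayed positive when the matched-pool slides were added, with a median of 0.34. That fit still holds the loop slides on which the 10 were picked, so their sign in it was largely fixed by the choice.

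The 2 clones past 2-fold on the positive side were of another kind. Ufsp1, a protease for the modifier UFM1, lay at 1.40 on the Fob3b pool slide and at -0.18 over the path. The other, paired with no gene, lay at 1.99 and -0.65. Among the 8 liver slides of this design both were high on 1 only, and both are printed in block 45. On the brown adipose slides the clone with no gene lay at 1.53 with Fob3b in red and 0.54 with F in red. Ufsp1 lay at 0.23 and -0.17 there.

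For the F pools, 0 of 7680 clones (0%) passed in limma and 318 (4.14%) did so before adjustment. In limma the lowest adjusted p of the F pools was 0.954. Most of the 318 were negative, 224 against 94. Of them 192 (60.4%) were printed in blocks 43 to 48, which hold 12.5% of all clones. For the Fob3b pools that share was 24.0%. Turning the second crossed slide gave 41 clones (0.534%), 13 positive and 28 negative, and 27 of the 41 were in those blocks.

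**Figure D4:**
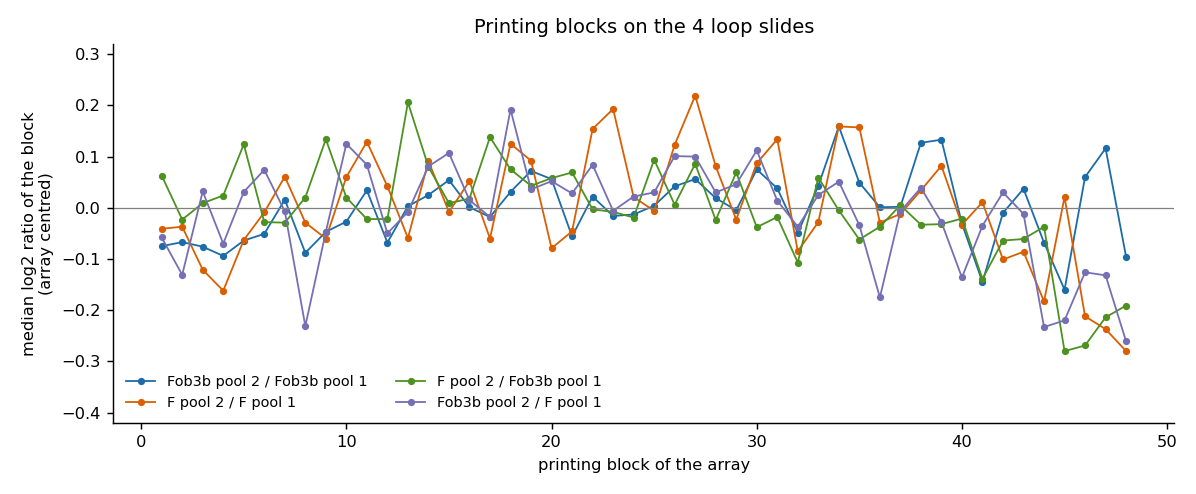
Median log2 ratio of the clones of each of the 48 printing blocks, in print order on the x axis, for the 4 loop slides. Blocks 46 to 48 lie between -0.28 and -0.21 on the F pool slide, and blocks 45 to 48 lie between -0.28 and -0.13 on the crossed slides.

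All 10 genes named on the lower side for F pool 2 came from these blocks. Ddx42, an RNA helicase of the spliceosome, lay at -1.67 on the F pool slide but at -0.48 over the path, for a fitted -1.37 (SE 0.257). Mid1ip1, which activates acetyl-CoA carboxylase, lay at -0.77 and -1.30, for -0.91 (SE 0.158), and Vhl, the von Hippel-Lindau tumour suppressor, had a fitted -0.84 (SE 0.154). Drr1, Sms, Ppp5c, Fam171b, Btrc, Pidd1 and Topbp1 lay between -0.72 and -0.58. On the turned loop the 10 lay between -1.42 and -0.43, and Ddx42, Mid1ip1, Vhl, Ppp5c, Btrc and Sms passed, with adjusted p in limma from 3.84e-07 to 0.0273. Another clone of Sms, the spermine synthase, and another of Btrc, an adaptor of a ubiquitin ligase, had the opposite sign.

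The size of these 10 values moved with the printing blocks. Their median size was 0.69 as measured, 0.51 with blocks centred and 0.18 with the 4 matched-pool slides added, where Pidd1 turned to 0.03. The part of the print position in these values was not tested further. On the upper side Slc28a3, a nucleoside transporter, lay at 0.51, Ckap4, of the endoplasmic reticulum, at 0.48, and Rlim, a ubiquitin ligase, at 0.47. Fam32a, Pygb, Gtsf1, Thrap3, Plagl2, Banp and Dpf2 lay between 0.38 and 0.44. Another clone of Fam32a, another of Dpf2, 1 of the 2 others of Rlim and both others of Thrap3 had the opposite sign. These 10 had a median size of 0.43, and of 0.28 with blocks centred.

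The pool differences of the lines were then set against each other, a comparison in which the dye cancels and the second crossed slide has no weight on the value. Again 0 of 7680 clones (0%) passed in limma and 170 (2.21%) did so before adjustment, with a lowest adjusted p of 0.743. Many of the 18 clones lay at the lower end, Mtfr1l and Pip4p1 at -1.58. Ddx42 stood at the upper end at 2.001. With the second crossed slide turned, which changes the error alone, 61 clones (0.794%) passed, 41 positive and 20 negative. Of these 43 were in blocks 43 to 48 and 17 were among the 18. The 18 were chosen by the Fob3b part of this difference, so their place here was largely fixed by that choice.

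The difference between the lines was then averaged over the pools, which cancels the dye as the slides are labelled. With the 4 solved pool values taken as samples, 2 per line, 0 of 7680 clones (0%) passed in limma and 339 (4.41%) did so before adjustment, with a lowest adjusted p of 0.765. With the array error in its place 0 (0%) passed in limma and 195 (2.54%) did so before adjustment, with a lowest adjusted p of 0.9999. Turning the second crossed slide gave 156 clones (2.03%) by array error, 115 positive and 41 negative, and 0 between pools. Of the 156, 82 were in blocks 43 to 48 and 89 had the sign of the matched-pool line difference. Over all clones the turned line difference had that sign in 48.4%. The turned value holds the dye effect of a clone, so these are not counts of line differences alone. Of the 339 clones, 208 (61.4%) were printed in blocks 1 to 13, which hold 27.1% of all clones.

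All 10 genes named as lower in Fob3b came from blocks 1 to 13. Setd1b, a histone H3 methyltransferase subunit, lay at 1.003 on the first crossed slide (F higher) and -0.22 on the second (F higher), for -0.61 (SE 0.134). Spdef, a transcription factor of secretory epithelia, had 0.54 and -0.52, for -0.53. Sirt1, a deacetylase that responds to nutrient state, had 0.73 and -0.26, for -0.49, and Bves, a membrane protein of muscle, -0.49. Csnk1a1, a casein kinase, lay at -0.48 while its 4 other clones had the opposite sign. Arpp19, Ncdn, Aspm, Gng13 and Ano1 lay between -0.47 and -0.37, and other clones of Arpp19 and Ano1 had the opposite sign.

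On the higher side the values were smaller. Ndfip1, an adaptor of ubiquitin ligases, lay at 0.41, Fnip1, a partner of folliculin in nutrient sensing, at 0.40, and the ribosomal protein gene Rps24 at 0.38. Naa30, Strap, Cst12, Dhdds, Rps21, Ndufc1 and Brd3 lay between 0.30 and 0.34. The other clones of Rps21 lay at 0.24 and 0.28, while another of Dhdds had the opposite sign. All 20 genes were picked for opposite signs on the crossed slides. Without the second crossed slide 18 of the 20 had the same sign, the exceptions being Naa30 (-0.22) and Aspm (0.03), and with it turned 10 of 20 did.

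The lines had been compared directly on the matched-pool slides, and the loop followed those values weakly or not at all. For Fob3b minus F, r between the loop and the matched-pool value of the same quantity was 0.037 across 7680 clones in pool 1, -0.005 in pool 2 and 0.120 for their mean. With blocks centred these were 0.140, 0.042 and 0.193. The turned loop had 0.172, -0.173 and 0.044, and without the second crossed slide they were 0.040, -0.268 and -0.131. For the difference between the pool differences r was -0.117. The combined pool and dye term of the loop had r of 0.242 with the dye effect of the matched-pool slides, and of 0.129 with blocks centred. All share the 4 RNA pools and the array features.

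With all 8 liver slides of the design in 1 fit and a dye term, 0 clones (0%) passed in limma for each of the 3 pool comparisons. The counts at an unadjusted p under 0.05 were 415 (5.4%) for the Fob3b pools, 468 (6.09%) for the F pools and 265 (3.45%) for their difference. The smallest adjusted p values were 0.437, 0.806 and 0.976. The 18 clones had a median of -1.004 for the Fob3b pools, from -1.44 to -0.83, and of -0.44 for the F pools. The 8 genes that passed in the loop had adjusted p between 0.266 and 0.673 in that fit.

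Lists of liver pathways and cell types were read as counts of genes by sign, with no test of a list. At an unadjusted p under 0.05 stood 258 of 4075 genes (6.33%) for the Fob3b pools, 197 (4.83%) for the F pools and 158 (3.88%) for the line difference. No list member passed after adjustment. Over all genes the median was 0.01 for the Fob3b pools and 0.02 for the F pools, with 52.9% and 54.7% positive. In a tissue sample fewer cells of a type and less RNA per cell cannot be told apart.

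Fatty acid oxidation, by which liver mitochondria break down lipid in fasting, lay higher in Fob3b pool 2 as labelled. Of 13 measured genes 11 lay above 0, with a median of 0.25, and 2 were positive at an unadjusted p under 0.05. Cpt1a, which admits fatty acids to the mitochondrion, had 0.18 on the Fob3b pool slide, 0.69 and 0.68 on the crossed slides and -0.09 on the F pool slide, for 0.50 (SE 0.232). Eci2 lay at 0.37, Cpt2 at 0.36 and Etfa at -0.34. For the F pools 6 of 13 were positive with a median of -0.01 as labelled, and 1 of 13 with a median of -0.10 on the turned loop. On the F pool slide itself 1 of 13 was positive with a median of -0.11. The Fob3b pool slide itself had 9 of 13 positive with a median of 0.13. With the matched-pool slides added, 12 of 13 were positive for Fob3b with a median of 0.21.

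The same list ran in 1 direction on both crossed slides. On the first 12 of 13 genes were positive with a median of 0.30, which is F higher, and on the second 11 of 13 were positive with a median of 0.14, which by its labels is Fob3b higher. On the matched-pool slides 0 of 13 genes were higher in Fob3b within pool 1 (median -0.27) and 4 of 13 within pool 2 (median -0.08). With the second crossed slide turned, the line difference of the list was positive for 1 gene of 13, with a median of -0.21, and the Fob3b pool difference for 9 of 13, with a median of 0.10. Cpt1a then lay at 0.16 and Eci2 at 0.05 between the Fob3b pools.

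Other genes of lipid handling in the Fob3b pools lay beside them. Plin2, the coat protein of lipid droplets, lay at 0.63, Dgat2, of triglyceride synthesis, at 0.44, and Srebf1, the regulator of lipid synthesis genes, at 0.26. In the fit with the second crossed slide turned these were 0.25, 0.18 and 0.28. Of the 4 measured genes that fasting induces in liver 2 were positive, and of the 7 that feeding induces 4 were. Neither count leaned to 1 side.

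Cytosolic ribosomal proteins, the parts of the translating ribosome, leaned to Fob3b in the line difference. Of 60 genes 51 were higher in Fob3b with a median of 0.08, against 51.0% of all genes and a median of 0.00, and 5 were positive at an unadjusted p under 0.05. On the first crossed slide 24 of 60 were positive with a median of -0.05, and on the second 47 with a median of 0.13. On the matched-pool slides 42 of 60 were higher in Fob3b within pool 1 and 45 within pool 2, with medians of 0.05 and 0.11. The count on the turned loop was 25 of 60 with a median of -0.04. Respiratory chain and ATP synthase genes had 31 of 37 higher in Fob3b with a median of 0.08, and 17 of 37 on the turned loop.

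In the F pools the ribosomal genes lay lower, 20 of 60 positive with a median of -0.08, and in the Fob3b pools 39 were positive with a median of 0.03. Counts on the turned loop were 5 of 60 for F with a median of -0.13 and 21 of 60 for Fob3b with a median of -0.04, so the Fob3b direction turned. On the F pool slide itself 10 of 60 were positive with a median of -0.14, and on the Fob3b pool slide 26 of 60 with a median of -0.03. The dye effect of a clone is part of each of these pool values.

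Enzymes that clear foreign compounds lay lower in Fob3b pool 2. Of 14 genes 3 were positive with a median of -0.09, and 3 were negative at an unadjusted p under 0.05. Gstm4, a glutathione transferase, lay at -0.43 and Aldh1a1, which makes retinoic acid, at -0.41, while Ephx1, an epoxide hydrolase, lay at 0.28. In the F pools 11 of 14 were positive, with a median of 0.05. In the turned loop 3 of 14 were positive for Fob3b, with a median of -0.18, and 7 of 14 for F, with a median of 0.01.

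Immediate early and stress genes, which react within minutes to handling, had 4 of 10 positive in the Fob3b pools with a median of -0.15. Zfp36l1, which promotes decay of mRNAs, lay at -0.82 on the Fob3b pool slide and at -0.72 (SE 0.137) in the fit, and Egr1, an early growth response factor, at -0.43. Fkbp5, a target of glucocorticoids, lay at 0.44. In the F pools the 3 had 0.08, 0.08 and 0.48. Here the turned loop had 3 of 10 positive for Fob3b with a median of -0.26, and the 3 genes lay at -0.76, -0.31 and 0.17.

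Heat shock genes were spread evenly, with 11 of 23 positive in both lines. Hsp90aa1, the inducible cytosolic chaperone, lay at -0.56 on the Fob3b pool slide, -0.23 on the F pool slide, -0.97 on the first crossed slide and -0.53 on the second. All 4 slides were thus lower in the red channel, and the fitted differences were -0.74 (SE 0.166) for Fob3b and -0.41 for F. With 8 slides and the dye term they were -0.62 and -0.75, and in the loop with the second crossed slide turned -0.47 and -0.15. Dnaja1 lay at 0.48 between the F pools, and at 0.28 on the turned loop. The turned counts were 9 and 6 of 23. Among 11 clock genes 5 were positive for Fob3b and 4 for F: Per3 lay at -0.38, Npas2 at -0.43 and Usp2 at 0.44 in Fob3b, and Wee1 at -0.59 in F. On the turned loop these counts were the same and these genes lay at -0.28, -0.27, 0.54 and -0.18.

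Of the smaller metabolic and growth lists, those of the cell cycle and glycolysis leaned to the positive side in Fob3b, as labelled and turned. Of the cell cycle genes 12 of 17 were positive for Fob3b and 11 for F, with medians of 0.10 and 0.02, and of the glycolysis genes 6 and 4 of 7, with medians of 0.10 and 0.01. The citrate cycle genes had 9 and 6 of 12 with medians of 0.04 and -0.01, and the proteasome genes 11 and 8 of 18 with medians of 0.02 and -0.02. The Fob3b counts on the turned loop were 12 of 17, 6 of 7, 5 of 12 and 9 of 18. On the Fob3b pool slide itself they were 13 of 17, 5 of 7, 4 of 12 and 9 of 18. Acute phase, sex-dimorphic, cholesterol, bile acid and interferon lists had 4 measured genes or fewer.

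Some markers of other cells had list medians as large as those of the pathways, in lists of 9 genes or fewer. Of 9 endothelial and stellate genes 7 were positive in each line, with medians of 0.05 and 0.20. Of 5 erythroid genes 1 was positive in Fob3b and 4 in F, and Hbb-b1, a haemoglobin chain, lay at -0.61 on the Fob3b pool slide and at -0.29 in the fit. The erythroid medians were -0.16 and 0.11. Both muscle genes, Tpm2 and Mylpf, were positive in Fob3b, at 0.29 and 0.28. Of 3 neutrophil genes none was positive in either line, and S100a9 lay at -0.46 in the F pools. For the turned loop 5 of 9 endothelial and stellate genes were positive in each line, with medians of 0.03 and 0.07. On the Fob3b pool slide itself 5 of 9 were positive, and on the F pool slide 6 of 9. The erythroid medians on the turned loop were -0.07 and 0.11, and Tpm2 and Mylpf lay at 0.22 and 0.15 in Fob3b. Kupffer cell, cholangiocyte and lymphocyte lists had 3 genes or fewer, and no exocrine pancreas or adipocyte marker was measured. The part of cell mix in the pool differences was not tested.

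**Figure D5:**
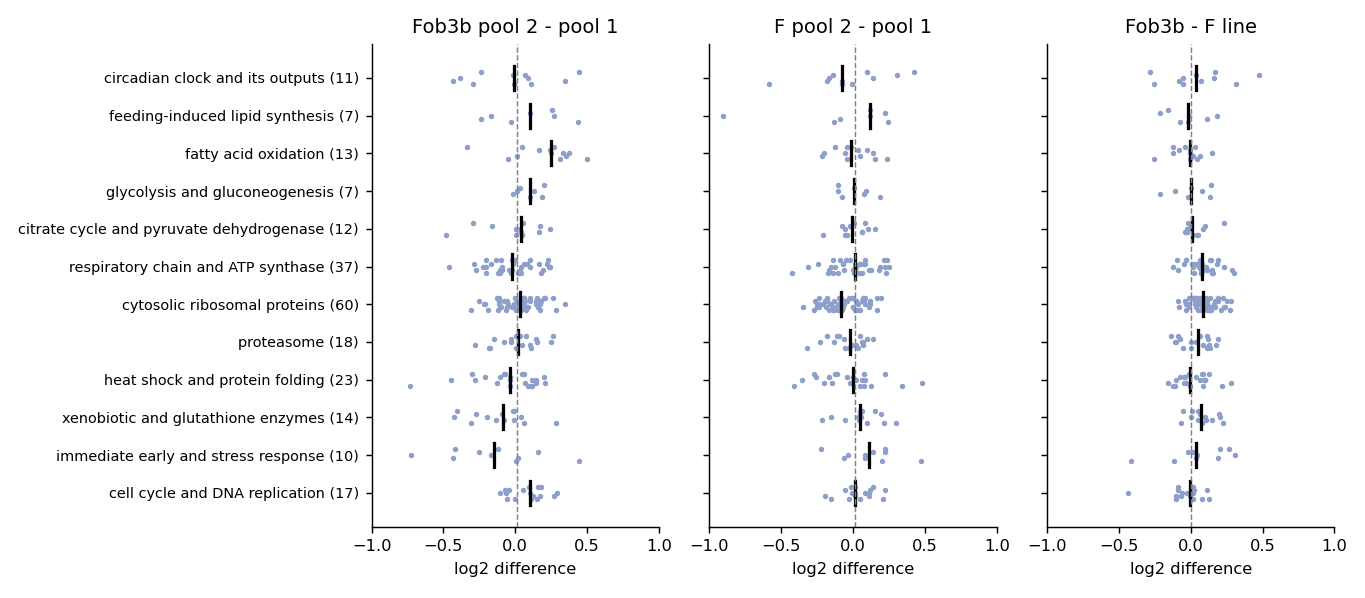
Log2 difference of each measured gene (points, clones of a gene averaged) and list median (vertical ticks), number of genes in brackets, for Fob3b pool 2 minus pool 1, F pool 2 minus pool 1 and the line difference. As labelled, fatty acid oxidation lies at 0.25 for the Fob3b pools, and the ribosomal and respiratory chain lists lie at 0.08 for the line difference. In the fit with the second crossed slide turned these are 0.10, -0.04 and -0.03, with the dye not cancelled in the line values.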

How the data were processed

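The authors deposited 1 log ratio of the dyes per spot and slide, here taken as log2 of red over green. Not given in the sources used here are the base, the numerator and all steps from scan to ratio. Control spots (1920) were left out, the 2 spots of each of 7680 clones were averaged, and the median clone of each slide was set to 0. Of the clones 4855 matched 1 gene, 274 several and 2551 none, through the annotation supplied for the array, and only those with 1 gene are named. No clone sequences were used.

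The 4 pool values of a clone were fitted by limma 3.58.1 in R 4.3.3 with 1 residual degree of freedom, moderated variances, two-sided tests and Benjamini-Hochberg adjustment over all clones at 0.05. The median SE of a pool difference was 0.128. For the line difference the 4 solved pool values entered limma as 4 samples. A fit of 8 liver slides had a dye term and 4 residual degrees of freedom. The fits were tested on simulated data. Depth is not defined for these arrays, and the number of slides limits the precision.

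Per comparison and side, 10 genes were named: those past the threshold by size, then the smallest p, with the same sign on the direct slide and over the path (line difference: opposite raw signs on the crossed slides). Lists name up to 4 genes of the largest mean pool difference. Fasn, Alas1 and Msmo1 were always named. Members, lists and rules were chosen with earlier results of these data known. Alternatives were no centring, block centring, scaling, single spots, gene averages, a robust prior, a replicate block, no dye term and each slide left out. The turned crossed slide was added after seeing the data.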

Additional observations from a re-analysis of the deposited data

Results flagged for a closer look

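The 60 clones named in the pool and line comparisons were examined on the 4 matched-pool slides, turned to Fob3b over F, for a slide that stands apart from the other 3. It was found for 2 of the 60 (3.33%), where chance gives about 1 in 20. Ndfip1 (clone 23499) lay at -0.44 on the pool 1 slide with Fob3b in red, and between 0.17 and 0.26 on the other 3. Pygb (clone 26662), the brain form of glycogen phosphorylase, lay at 0.12 on the pool 2 slide with Fob3b in red, and between -0.10 and -0.07 on the others.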

How the results depend on the processing

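The Fob3b pool difference moved from 0 to 14 clones without centring, 12 with arrays scaled, 12 with the lower spots only and 8 genes with clones of a gene averaged, all negative. With 8 slides it gave 1 clone with printing blocks centred and 18 without the dye term, all negative, and 0 to 5 with each slide left out, the 5 without the F pool slide. The F pool difference with 8 slides gave 4997 positive clones without centring, where the median clone lay at 0.55, and 0 to 18 with each slide left out, the 18 without the first crossed slide. The difference between the pool differences stayed at 0. With the dyes of the second crossed slide turned, added after seeing the data, the loop gave 66 clones for Fob3b, 41 for F, 61 for their difference and 156 for the line by array error, and the fits on 8 slides 0. In the turned loop the line difference holds the dye. The pool numbers pair no samples by label, and with the pool number as a replicate block the line difference gave 0 clones, 453 at an unadjusted p under 0.05 (limma, smallest adjusted p 0.705). The cause of these changes was not tested.

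The SDs of the combined pool and dye term, the line difference, the difference between pool differences and the closure were 0.2395, 0.160, 0.152 and 0.197 with blocks centred, 0.290, 0.199, 0.202 and 0.235 on upper spots, 0.298, 0.197, 0.191 and 0.232 on lower spots, and 0.263, 0.158, 0.159 and 0.189 over genes. The line difference had 0.172 with arrays scaled. With the second crossed slide turned they were 0.2395, 0.242, 0.173 and 0.192. Of the named genes Pidd1 turned to 0.026 in the F pools with 8 slides, and in the line difference, with each crossed slide left out, Naa30 ran from -0.219 to 0.890 and Aspm from -0.785 to 0.034, both turning without the second. Without 1 loop slide no residual degree of freedom remains, so these have no test. The number of slides and 1 RNA pool per value are the main limits.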
